A study of Caenorhabditis elegans with 6 samples.

Results

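pud-3 and pud-4 are neighbouring genes on chromosome V of C. elegans, and among genes with a value above 0 in every library they had the largest rise at 25°C. They were chosen for that rise, as the rows with these gene names in the table of expression values, and are 2 of its 16391 genes. The study measured gene expression by RNA-seq in whole worms of the wild-type strain N2 (Bristol), fed E. coli OP50 and collected at the L4 larval stage, the last before adulthood. Of the 6 libraries, 3 came from worms grown at 15°C and 3 from worms grown at 25°C, and the comparison asks which genes respond to growth at the higher temperature. Per the study's methods, parents were moved to either temperature and their progeny hatched and grew there, and the parents at 15°C began laying earlier so that both groups matched in development, whereas the labels describe cultivation from synchronized L1 larvae. The labels do not say whether replicates came from separate cultures, so the errors below measure only the spread between these libraries. Expression is given as FPKM, the number of fragments scaled by transcript length and by the size of the library.

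The name pud stands for protein up-regulated in daf-2, because the first of these proteins were found to be more abundant in worms with reduced function of DAF-2, the C. elegans insulin and IGF receptor. When signalling through DAF-2 is low, the FOXO transcription factor DAF-16 enters the nucleus and changes the expression of many stress and metabolic genes. PUD-1 and PUD-2 are small, homologous cytoplasmic proteins of the intestine and hypodermis that bind each other as a heterodimer, and PUD-3, PUD-4, PUDL-1 and PUDL-2 are their relatives, which are monomers. The biochemical function of PUD-3 and PUD-4 is not established.

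pud-3 (F15E11.15) lies at chrV:2324634-2325152 of the WBcel235 assembly, on the minus strand, and pud-4 (F15E11.12) at chrV:2326678-2327282, on the plus strand. The genes point away from each other, with 1526 bases between their annotated start sites, and no other annotated gene overlaps either. pud-3 is annotated as 1 exon of 519 bases that is coding throughout, for 172 residues. pud-4 has 2 annotated transcripts, with 564 exonic bases together, which code for 148 and 162 residues. Both are short genes beside the median exonic length of 1244 bases over the genes of the table that were matched to the annotation. They sit inside a cluster of 6 pud genes that spans 8893 bases, from chrV:2322038 to chrV:2330930. In order along the chromosome these are pud-1.2, pud-2.2, pud-3, pud-4, pud-2.1 and pud-1.1, and they form 3 pairs of genes that point away from each other. The start sites of pud-1.2 and pud-2.2 are 448 bases apart and those of pud-2.1 and pud-1.1 are 475 bases apart.

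**Figure D1:**
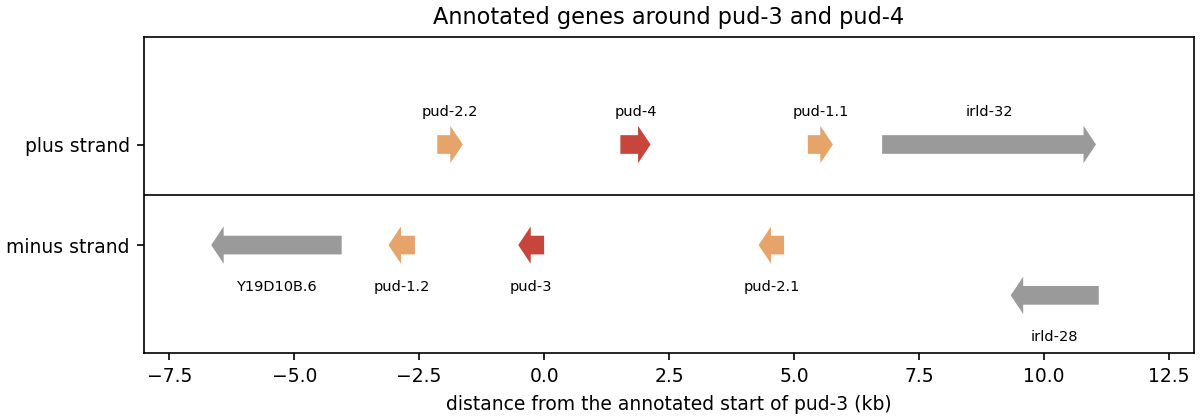
Annotated genes around pud-3 and pud-4 that lie whole within the drawn window, by distance in kb from the annotated start of pud-3 (x axis) and by strand (y axis), with pud-3 and pud-4 in red, the other pud genes in orange and other genes in grey. Arrows point in the direction of transcription, and the 6 pud genes alternate in strand as 3 pairs that point apart.

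The FPKM of a library summed to between 2663992 and 3313082, and between 15007 and 15255 genes were above 0. Sequencing depth is unknown, since whole reads could not be recognized in the values. An exact 0 can be a failed estimate. In 55 genes at least 1 library was at 0 while a replicate of it reached 50 FPKM or more, but neither pud-3 nor pud-4 was at 0 in any library. Of 12996 genes that averaged 1 FPKM or more, limma called 1630, or 12.5%, with a log2 change (the log2 of the ratio of 25°C to 15°C) past 1 in size and a Benjamini-Hochberg adjusted p below 0.01. At 25°C, 904 of these (6.96%) were higher and 726 (5.59%) lower. An unadjusted p under 0.05 in limma was far more common, at 6479 of the 12996 tested genes. In 54.7% of tested genes the 3 libraries of each temperature did not overlap, in either direction. In 25.9% those at 25°C were all higher.

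pud-3 was at 13.2, 22.8 and 17.03 FPKM in the 3 libraries at 15°C, against 925, 585 and 653 FPKM at 25°C. The groups lay far apart. The lowest library at 25°C was 25.7 times the highest at 15°C, and the most distant libraries differed by 70.01 times. Its mean at 15°C was 17.7 ± 4.81 FPKM and at 25°C 721 ± 180 FPKM (SD, n = 3 for each), which is 40.8-fold.

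pud-4 was at 10.5, 8.94 and 5.84 FPKM at 15°C, against 649, 377 and 403 FPKM at 25°C. Again no library of one temperature came near those of the other, and the ratio between libraries of the 2 temperatures ranged from 35.8 to 111 times. Its mean at 15°C was 8.43 ± 2.38 FPKM and at 25°C 476 ± 150 FPKM (SD, n = 3 for each), which is 56.5-fold. On the log2(FPKM + 0.5) scale used for all genes, the difference was 5.73 for pud-4 and 5.32 for pud-3. Because the genes were selected on this contrast, no test is given for them. In 25.9% of all tested genes, too, the 3 libraries at 25°C lay above the 3 at 15°C.

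**Figure D2:**
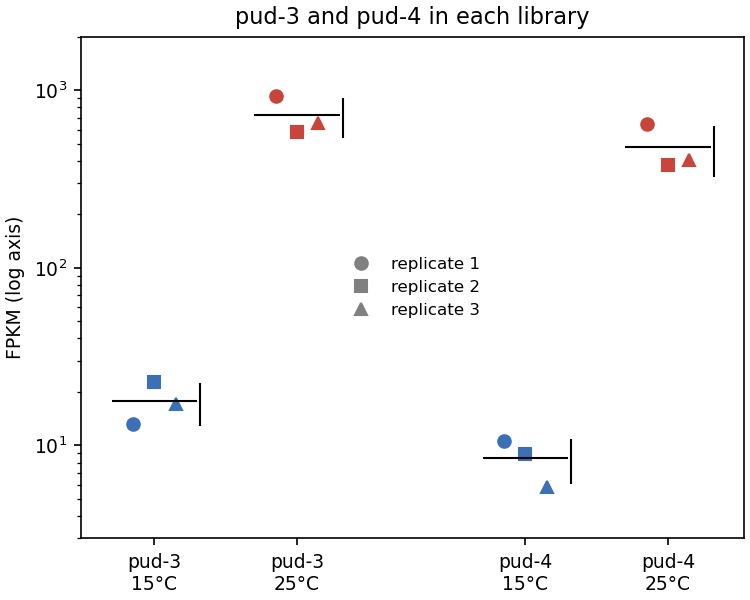
FPKM of pud-3 and pud-4 on a log axis in each of the 3 libraries at 15°C (blue) and the 3 at 25°C (red), with the symbol giving the replicate, horizontal lines the mean and vertical lines 1 SD to either side. For pud-3 the libraries ran from 13.2 to 22.8 FPKM at 15°C and from 585 to 925 FPKM at 25°C, and for pud-4 from 5.84 to 10.5 and from 377 to 649 FPKM.

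The spread between libraries was similar in relative terms at both temperatures, although the levels differed greatly. The coefficient of variation of pud-3 was 27.2% at 15°C and 24.9% at 25°C, and that of pud-4 was 28.2% and 31.5%. At 25°C both genes had the same order of libraries, with replicate 1 highest and replicate 2 lowest. The highest of these was 1.58 times the lowest for pud-3 and 1.72 times for pud-4. At 15°C the orders differed, with pud-3 highest in replicate 2 and pud-4 highest in replicate 1.

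The level of pud-3 was above that of pud-4 in all 6 libraries. As a ratio of FPKM, pud-3 to pud-4 was 1.26, 2.55 and 2.92 at 15°C and 1.42, 1.55 and 1.62 at 25°C. The ratio was thus spread more widely at 15°C, at 2.24 ± 0.872, than at 25°C, at 1.53 ± 0.0983 (SD, n = 3 for each), and the groups overlapped. A change in the balance of the genes could not be told from the spread between the libraries at 15°C.

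Ranked by level, both genes moved from the middle of the table to near its top. In the libraries at 15°C, between 53.1% and 62.1% of all genes had a lower FPKM than pud-3, and between 41.8% and 49.7% a lower FPKM than pud-4. In the libraries at 25°C these shares were 96.6% to 97.8% for pud-3 and 95.1% to 96.9% for pud-4. Of the 16391 genes, pud-3 stood at rank 367, 558 and 502 and pud-4 at rank 513, 808 and 763 in the 3 libraries at 25°C. Even so, pud-3 and pud-4 together made up no more than 0.0567% of the summed FPKM of a library.

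The rule that chose them has an edge that needs its context. Among the 12637 tested genes above 0 in every library, pud-4 ranked first and pud-3 second by log2 change. Over all tested genes they were at rank 10 and 11, and the 9 genes with a larger difference each had at least 1 library at 0. Next after pud-3 came Y65B4BL.6, with a log2 difference of 4.92. Its libraries overlapped, with 2.19, 330 and 2.17 FPKM at 15°C and 2401, 13.8 and 1917 FPKM at 25°C. It was followed by hsp-16.2, which encodes a small heat shock protein, with a log2 difference of 4.80, and by C25F9.12, with 4.42.

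The other 4 pud genes of the cluster had far lower FPKM. Each was higher in every library at 25°C than at 15°C, as were 25.9% of all tested genes, and 2 of them were called. Those tested met the filter on mean FPKM only through their values at 25°C. The pudl genes on chromosome IV were not higher. pud-1.2 and pud-1.1 encode PUD-1, and pud-2.1 and pud-2.2 encode PUD-2, in near-identical copies with coding lengths of 453 bases for each PUD-1 gene and 462 bases for each PUD-2 gene. Reads from such copies cannot be assigned with certainty, so the values of a single copy are uncertain. In 15°C replicate 1, pud-2.1 and pud-2.2 were listed at the same 0.531 FPKM.

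pud-1.2 was listed at 0, 0 and 0.352 FPKM at 15°C, against 6.26, 6.69 and 3.45 FPKM at 25°C. The groups did not overlap, and its log2 change was 3.27 (standard error 0.35), with an adjusted p of 0.000777 in limma. pud-2.1 was listed at 0.531, 0.759 and 0 FPKM at 15°C, against 4.67, 4.52 and 2.35 FPKM at 25°C, with a log2 change of 2.28 (standard error 0.42) and an adjusted p of 0.00604 in limma. Both passed the threshold. Their fold changes depend on the pseudocount of 0.5, since the levels at 15°C lie about at it for pud-2.1 and below it for pud-1.2. With a pseudocount of 1 or 0.1 the log2 change was 2.51 or 5.02 for pud-1.2. For pud-2.1 it was 1.76 or 3.32.

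pud-1.1 was listed at 0, 0.296 and 0 FPKM at 15°C, against 5.69, 0.873 and 2.96 FPKM at 25°C. Its replicate 2 at 25°C lay well below the others, and its log2 change of 2.40 (standard error 0.55) missed the threshold, with an adjusted p of 0.013 in limma. pud-2.2 was listed at 0.531, 0 and 0.304 FPKM at 15°C, against 1.47, 1.51 and 1.496 FPKM at 25°C, and its mean was under the 1 FPKM needed for a test. With no filter on low values, it had a log2 change of 1.42 (adjusted p = 0.00967 from limma). In all 4 genes each library at 25°C was above each library at 15°C, which was so in 25.9% of all tested genes.

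With the copies summed, an alternative chosen after the data were seen, both sums were called higher. These sums, too, met the filter on mean FPKM only through 25°C. The sum of pud-1.1 and pud-1.2 was 0.216 ± 0.189 FPKM at 15°C against 8.64 ± 2.92 FPKM at 25°C (SD, n = 3 for each), with a log2 change of 3.67 (standard error 0.32) and an adjusted p of 0.000392 in limma. That of pud-2.1 and pud-2.2 was 0.708 ± 0.381 and 5.34 ± 1.29 FPKM, with a log2 change of 2.30 (standard error 0.32) and an adjusted p of 0.0021 in limma. All 4 genes together held between 10.3 and 18.1 FPKM in a library at 25°C, and pud-3 and pud-4 held between 98.6% and 99.0% of the FPKM summed over the 6 genes there. At 15°C they held between 95.7% and 97.2%.

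pudl-1 lies at chrIV:2832906-2833379 and pudl-2 at chrIV:2834816-2835286, both on the plus strand. pudl-1 was at 35.5, 26.4 and 24.6 FPKM at 15°C, against 11.4, 17.9 and 18.7 FPKM at 25°C. Its groups did not overlap and pointed the other way from pud-3, but its log2 change of -0.84 (standard error 0.23) was not called, with an adjusted p of 0.0248 in limma. Such separation, in either direction, was found in 54.7% of all tested genes. pudl-2 was at 4.14, 5.17 and 6.49 FPKM at 15°C, against 3.54, 8.12 and 4.09 FPKM at 25°C, with overlapping groups and a log2 change of -0.07 (standard error 0.32) that was above 0 after rescaling to TPM or equal library sums. At 15°C pudl-1 was thus above pud-3 in every library, and at 25°C it was below. Of the 5 relatives tested, 2 were called higher and 0 lower by limma (3 higher and 1 lower had an unadjusted p under 0.05), beside 6.96% of all tested genes called higher. However, pud-1.1, pud-1.2 and pud-2.1 met the filter on mean FPKM only through 25°C, with means of 0.0986, 0.117 and 0.43 FPKM at 15°C. A gene admitted this way could only come out higher. The count is therefore no separate support for a rise of the family. The number called higher fell to 1 when replicate 1 or 3 of either temperature was left out. pud-2.1 was no longer called without any one of the libraries other than 15°C replicate 2, with adjusted p between 0.0105 and 0.0255 in limma, while pud-1.2 stayed called without any one library. pud-1.1 was called without 25°C replicate 2, its lowest library at 25°C, with a log2 change of 2.99 and an adjusted p of 0.00358 in limma.

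**Figure D3:**
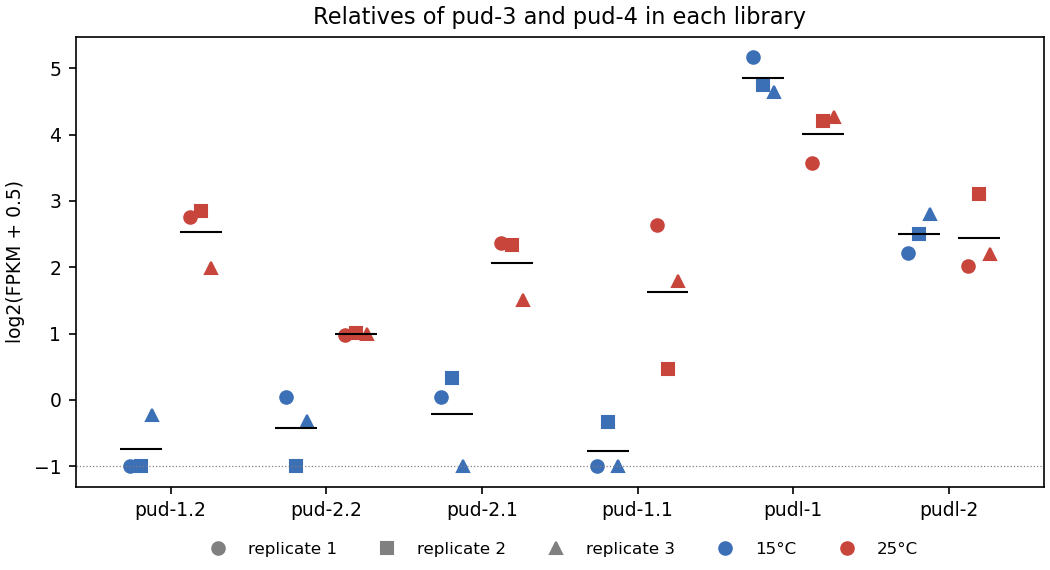
Expression of the 6 relatives on the log2(FPKM + 0.5) scale in each library, at 15°C (blue) and 25°C (red), with the symbol giving the replicate, black lines the mean of the 3 values and the dotted line at -1 a value of 0 FPKM. The 4 pud genes were higher in every library at 25°C than at 15°C, while pudl-1 was lower and the groups of pudl-2 overlapped. Over all tested genes, 25.9% were higher in every library at 25°C.

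The genes around the cluster did not share its rise as far as they could be measured. Within 20 kb of pud-3 or pud-4 the annotation holds 10 genes outside the family, of which 5 are pseudogenes. The table had values for 4 of them and only 1 reached the mean of 1 FPKM. This gene, Y19D10B.6, borders the cluster next to pud-1.2. It was at 5.35, 5.74 and 5.85 FPKM at 15°C, against 3.16, 2.85 and 3.58 FPKM at 25°C, lower in every library at 25°C. Its log2 change of -0.74 (standard error 0.17) was not called, with an adjusted p of 0.0128 in limma. Groups without overlap, in either direction, were found in 54.7% of all tested genes. On the other side of the cluster, irld-32 was at 0.866, 0.428 and 0.982 FPKM at 15°C, against 0.401, 0.825 and 0.385 FPKM at 25°C, with overlapping groups. irld-28 was at 0 in every library except 25°C replicate 2, at 0.388 FPKM, and irld-30 stayed at or below 0.133 FPKM. irld-32 and irld-28 overlap on opposite strands. The irld genes encode proteins with domains like the ligand-binding part of the insulin and EGF receptors.

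To find the genes whose pattern was most like that of pud-3 and pud-4, each gene's log2(FPKM + 0.5) values were centred on their own mean. The root mean square difference from the mean profile of pud-3 and pud-4 was then taken over the 6 libraries. pud-3 and pud-4 themselves lay at 0.21 from it. The nearest other genes were F45E12.6 at 0.33, mtl-1 at 0.34, hsp-16.2 at 0.48, Y68A4A.13 at 0.53 and hsp-16.41 at 0.55. F45E12.6 stood at 0 in every 15°C library, against 43.1, 23.97 and 35.1 FPKM at 25°C. mtl-1, which encodes a metallothionein, a small metal-binding protein, likewise stood at 0 in every 15°C library, against 33.5, 18.4 and 36.5 FPKM at 25°C. Like pud-3 and pud-4, both had their lowest value at 25°C in replicate 2, as did hsp-16.2 and hsp-16.41. hsp-16.2 was at 1.09, 2.81 and 0.963 FPKM at 15°C, against 57.5, 45.3 and 62.3 FPKM at 25°C, and hsp-16.41 at 0, 1.17 and 0 FPKM, against 56.0, 43.5 and 50.9 FPKM. Y68A4A.13 was listed at 0 at 15°C, against 45.7, 49.9 and 24.6 FPKM at 25°C, with its highest value in the library where pud-3 and pud-4 were lowest. None of the 5 came near the level of pud-3 or pud-4 at 25°C in FPKM. With 6 libraries in 2 groups, this measure of likeness mostly reflects the size of the difference between the temperatures. For F45E12.6, mtl-1, Y68A4A.13 and hsp-16.41, with values of 0 at 15°C, that size depends on the pseudocount of 0.5. Their distances were not computed with another pseudocount.

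**Figure D4:**
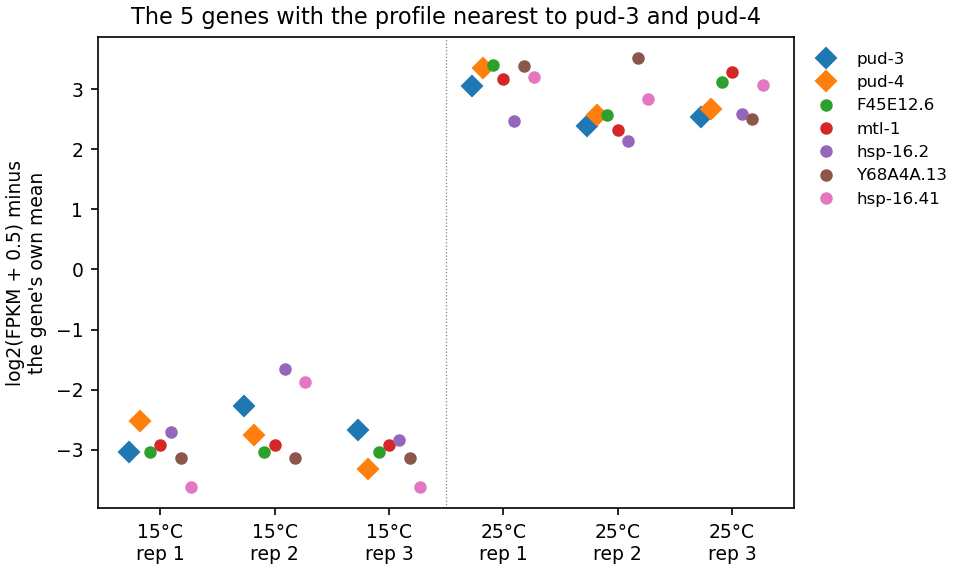
log2(FPKM + 0.5) minus each gene's own mean (y axis) in the 6 libraries (x axis) for pud-3 and pud-4 (diamonds) and the 5 genes with the nearest profiles (circles). Each gene is set off sideways for legibility, all are separated by temperature, and pud-3 and pud-4 have their lowest value at 25°C in replicate 2.

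Since the pud genes are named for their response to reduced DAF-2 function, genes of that pathway were looked up. None of the genes from the receptor to DAF-16 was called. Of 9 genes tested among 11 listed, 0 were called by limma in either direction, beside 12.5% of all tested genes. Unadjusted p from limma was under 0.05 in 4 lower and 0 higher genes, beside 6479 of all 12996 tested genes. The median log2 change was -0.65, beside -0.03 over all tested genes. daf-16 itself was at 44.4, 44.4 and 59.6 FPKM at 15°C, against 28.8, 30.3 and 27.1 FPKM at 25°C. It was lower in every library at 25°C, with a log2 change of -0.76 (standard error 0.15) and an adjusted p of 0.00774 in limma, short of the threshold on size. Groups without overlap, in either direction, were found in 54.7% of all tested genes. daf-2 was at 6.61, 4.36 and 10.1 FPKM at 15°C, against 3.66, 4.79 and 3.82 FPKM at 25°C, with overlapping groups (log2 change -0.65, adjusted p = 0.117 from limma).

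Genes that DAF-16 is known to activate moved in different directions from each other while pud-3 and pud-4 rose. Of 13 genes tested among 14 listed, limma called 1 higher and 2 lower (7 higher and 3 lower had an unadjusted p under 0.05), beside 6.96% and 5.59% of all tested genes. The median log2 change was 0.38. The gene called higher was mtl-1, which stood at 0 in every 15°C library and so met the filter on mean FPKM only through 25°C. sod-3, which encodes a mitochondrial superoxide dismutase and is a common reporter of DAF-16 activity, fell. It was at 16.6, 12.8 and 15.4 FPKM at 15°C, against 5.60, 5.65 and 6.42 FPKM at 25°C, with a log2 change of -1.26 (standard error 0.16) and an adjusted p of 0.00136 in limma. hsp-12.3, which encodes a small heat shock protein, also fell, with a log2 change of -1.01 (adjusted p = 0.00715 from limma). Of 8 genes that rise when DAF-16 is lost, 6 were tested, and 2 were called higher and 0 lower by limma (4 higher and 0 lower had an unadjusted p under 0.05), with a median of 0.96. The largest rise was that of dod-22, which encodes a CUB-like domain protein, from 21.7 to 94.1 FPKM in the mean (log2 change 2.09, adjusted p = 0.000238 from limma). dod-19 was called with a log2 change of 1.07.
Single libraries changed these counts. Of the genes DAF-16 activates, 2 were called higher without 15°C replicate 3, and 1 was called lower without any one library other than 25°C replicate 1. hsp-12.3 was the gene that lost its call. Of those that rise when DAF-16 is lost, 1 was called higher without 15°C replicate 1 or 3. dod-19 was no longer called without replicate 1 or 3 of either temperature, and other genes took its place in the count in some of these fits, while dod-22 was called without any one library.

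In the list of heat shock proteins and chaperones, 3 members induced by heat shock were higher at 25°C like pud-3 and pud-4, and no other member was called. With 9 of 10 listed members tested, 3 passed as higher and 0 lower by limma, beside 6.96% and 5.59% of all tested genes. Unadjusted p from limma was under 0.05 in 5 higher and 4 lower members, and the median log2 change was 0.57. Those called were hsp-16.41 (6.07), hsp-16.2 (4.80) and hsp-70 (3.43), all induced by heat shock, and each was called without any one library. Of these, hsp-16.41 and hsp-70 met the filter on mean FPKM only through 25°C, with means of 0.390 and 0.177 FPKM at 15°C. As TPM or with equal library sums, 4 members were called higher. hsp-70 was at 0.0785, 0.0402 and 0.411 FPKM at 15°C, against 6.94, 5.39 and 7.60 FPKM at 25°C. hsp-1, the constitutive HSP70 of the cytosol, was at 1276, 1553 and 1625 FPKM at 15°C, against 712, 1083 and 788 FPKM at 25°C, with a log2 change of -0.80 (adjusted p = 0.0119 from limma) that was not called. In FPKM, pud-3 at 25°C was thus above hsp-1 in replicate 1 and below it in the other 2 libraries. The remaining members went both ways in log2 change, with hsp-3 (0.83) and hsp-4 (0.57) up. hsp-6 (-0.64), hsp-60 (-0.63) and hsp-110 (-0.71) went down.

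Lists of tissue markers were looked up to see whether the make-up of the worms differed between the temperatures. Over all tested genes, 6.96% were called higher and 5.59% lower, so 0 or 1 called in lists this short says little about a tissue. Of 9 intestine genes, 1 was called higher and 0 lower by limma (4 higher and 1 lower had an unadjusted p under 0.05), with a median log2 change of 0.20. Their summed FPKM ran from 5180 to 7404 at 15°C and from 5964 to 6194 at 25°C, so the groups overlapped. The gene called was elt-7, a GATA factor of intestinal differentiation (log2 change 1.11), while elt-2, the main GATA factor of the intestine, was at -0.05. The rest of the list was mixed, with vha-6 (0.90), pho-1 (0.66), ifb-2 (0.33) and ges-1 (0.20) above 0. pept-1 (-0.43), act-5 (-0.29) and asp-1 (-0.14) were below 0. Leaving out 15°C replicate 1 or 25°C replicate 3 brought the number called to 0, and leaving out 15°C replicate 3 brought it to 2. With 5 of 8 hypodermis genes tested, 0 were called in either direction by limma (0 higher and 2 lower had an unadjusted p under 0.05), with a median of -0.17 and sums of 72.1 to 111 FPKM at 15°C and 62.3 to 87.0 FPKM at 25°C. With 5 of 6 muscle genes tested, 0 were called by limma (0 higher and 1 lower had an unadjusted p under 0.05), with a median of -0.23. The muscle sums were 1961 to 2295 FPKM at 15°C and 1525 to 1946 FPKM at 25°C, and only in this tissue list did they not overlap. That gap was narrow, and the total FPKM of a library was larger at 15°C (at least 2865856) than at 25°C (at most 2776526). The list sums were not rescaled to equal totals. With 5 of 6 neuron genes tested, 0 were called by limma (1 higher and 0 lower had an unadjusted p under 0.05), with a median of -0.11 and sums of 347 to 420 and 399 to 423 FPKM. The medians of the hypodermis and neuron lists were above 0 after rescaling to TPM or to equal library sums, and that of muscle was -0.04 under either. In whole worms, more RNA per cell and more cells that express pud-3 or pud-4 cannot be told apart.

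Genes that mark the reproductive stage also differed between the groups in which pud-3 and pud-4 differed, in the direction of lower values at 25°C. Over all tested genes, 5.59% were called lower and 6.96% higher. Of 6 vitellogenin genes, which encode yolk proteins made in the intestine, 5 were tested, and 3 were called lower and 0 higher by limma (5 lower and 0 higher had an unadjusted p under 0.05). Their median was -1.30, and their summed FPKM ran from 2760 to 4626 at 15°C and from 1568 to 1910 at 25°C. Of 5 oocyte genes, 3 were called lower and 0 higher by limma (4 lower and 0 higher had an unadjusted p under 0.05), with a median of -1.67 and sums of 591 to 899 FPKM at 15°C and 308 to 372 FPKM at 25°C. None of the oocyte genes was called without 15°C replicate 1. rme-2, the yolk receptor of oocytes, was at 128, 112 and 158 FPKM at 15°C, against 19.1, 44.4 and 31.0 FPKM at 25°C. Within 25°C its order of libraries was the reverse of that of pud-3 and pud-4, with replicate 2 highest and replicate 1 lowest. This order held in 4 of the 5 oocyte genes, cbd-1, an eggshell component, among them. It did not hold in puf-5, an RNA-binding protein gene, which was highest in replicate 1, at 193.5, 165.5 and 151.2 FPKM. Among the vitellogenin genes vit-5 had it, whereas vit-1, vit-2, vit-4 and vit-6 were highest in replicate 2 but lowest in replicate 3. The order of rme-2 was not particular to genes of the reproductive stage. The muscle genes myo-3, unc-15, unc-22, mup-2 and unc-27 had it too, with mup-2 at 396.7, 518.5 and 476.2 FPKM at 25°C. So did the chaperone genes hsp-1, hsp-4, hsp-6, hsp-60 and hsp-110, but not hsp-3. The share of all genes with this order was not counted. All these genes were read in the same 3 libraries, so they do not replicate each other.
Of 5 molting genes 2 were tested, and 1 (noah-2) was called lower and 0 higher, beside 5.59% and 6.96% of all tested genes. Both were lower with an unadjusted p under 0.05 in limma, with a median of -0.95. Neither was called without any one library, and the sums were 3.76 to 5.13 and 1.24 to 2.45 FPKM. Of 4 genes of the adult cuticle 3 were tested, and 1 (rol-6, a cuticle collagen) was called higher and 0 lower (1 higher and 1 lower had an unadjusted p under 0.05), with a median of 0.16. None was called without 25°C replicate 3, and the sums were 1482 to 1724 and 747 to 1326 FPKM. col-19, an adult-specific collagen, made up most of these sums, with 719, 1297 and 1008 FPKM at 25°C, lowest in replicate 1 and highest in replicate 2, an order that 1 of the 4 listed cuticle genes had. The part of stage in the levels of pud-3 and pud-4 was not tested.

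**Figure D5:**
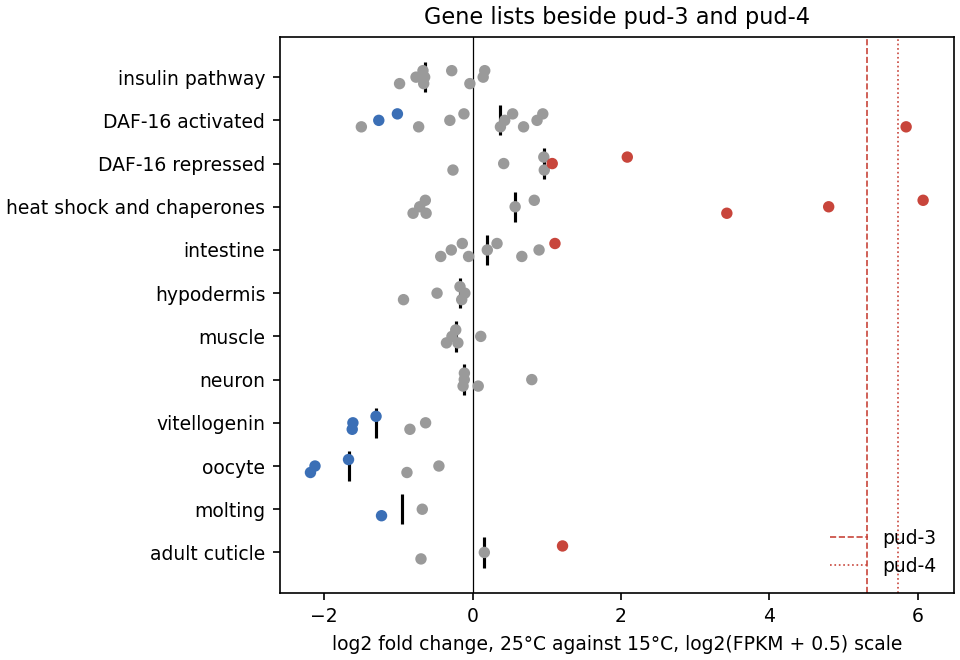
log2 change between 25°C and 15°C on the log2(FPKM + 0.5) scale (x axis) of each tested gene in the 12 lists (y axis), with called genes in red (higher) and blue (lower), other genes in grey and the list medians as black bars. The broken and dotted lines mark pud-3 (5.32) and pud-4 (5.73), and the only list genes beyond the line of pud-3 are mtl-1 and hsp-16.41. Both had values of 0 FPKM at 15°C, so their log2 changes depend on the pseudocount.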

How the data were processed

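Total RNA of 6 libraries was sequenced after stranded mRNA library preparation. Per the labels, the authors aligned reads to WBcel235 with TopHat2 2.0.6 and used Cufflinks, and they deposited a table of FPKM with 1 column per library. How genes were filtered for it is not stated.

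Values were analyzed as log2(FPKM + 0.5) in genes averaging 1 FPKM or more (12996), with limma 3.58.1 (R 4.3.3, intensity trend, no covariate, two-sided, Benjamini-Hochberg over all tested genes). The thresholds were those of the study, a 2-fold change and an adjusted p under 0.01. An exact permutation test cannot go below 0.1 with 3 libraries against 3 and was not run. Tables and figures used pandas 2.3.3 and numpy 2.4.6 in Python 3.11.15, with matplotlib 3.10.9 for plots. Coordinates come from RefSeq genes of WBcel235, and strands, exons and coding lengths from Ensembl release 115 of that assembly. Ensembl gives both PUD-2 genes the name pud-2.2, so RefSeq names were used. No genome or protein sequence was used here.

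Named genes were pud-3, pud-4, their relatives, neighbours within 20 kb, the 3 genes next in rank, the 5 with the nearest profiles, and members of the lists (insulin pathway, DAF-16 activated and repressed, heat shock and chaperones, intestine, hypodermis, muscle, neuron, vitellogenin, oocyte, molting, adult cuticle). At most 3 called genes each way were named per list, and any member of lists of up to 12 genes. cbd-1, puf-5, elt-2, rme-2 and col-19 were picked for description after their values were seen. So were the vitellogenin genes, the muscle genes, the other intestine genes that were not called, and hsp-3, hsp-4, hsp-6, hsp-60 and hsp-110. Members and lists were chosen with earlier results of these data known. The fit was also run with a pseudocount of 0.1 or 1, without a filter, with a minimum of 5 FPKM, median-ratio scaling, TPM (filtered after rescaling), equal library sums, no trend, treat (limma's test against a 2-fold change), a replicate block, each library left out, and summed copies, the last chosen after the data were seen.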

Additional observations from a re-analysis of the deposited data

How the results depend on the processing

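The rise of pud-3 and pud-4 changed by less than the spread between libraries under every alternative that was run for them. The log2 fold change of pud-3 was 5.28 to 5.50 under the pseudocounts, scalings and the replicate block, and 5.12 to 5.51 with each library left out in turn. That of pud-4 was 5.65 to 5.91 and 5.49 to 5.90. Sequencing depth is unknown, so the precision rests on 3 libraries per temperature, and the copies of pud-1 and pud-2 are measured near the limit at which genes were kept.

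Over all genes, 597 were called higher and 406 lower with the replicate number as a block, and treat called 137 and 26. Rescaling to TPM gave 353 lower and equal sums 421 lower, with 74.4% and 74.3% of calls higher in place of 55.5%, and the median of all tested genes moved to 0.12 and 0.15. With a library left out, 561 to 855 were called higher and 320 to 826 lower. Same-numbered libraries did not deviate together (correlations of -0.03, -0.10 and -0.05), and none correlated best with its own number. The labels do not say whether equal numbers mark a pairing. Correlations of deviations within such small groups cannot show it, so whether the block fits the design is unknown.

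Among the relatives, 1 was called higher with a pseudocount of 0.1 or as TPM, and 0 with a mean of at least 5 FPKM or under treat, against 1 to 2 with a library left out. Under treat pud-1.2 had an adjusted p of 0.0104 from limma, and with a pseudocount of 0.1 pud-2.1 had 0.0179. pudl-2 turned to 0.0918 as TPM and 0.101 with equal sums, and with a library left out ranged from -0.40 to 0.15, and was above 0 with 15°C replicate 3 left out (0.0811) and with replicate 1 (0.146) or 3 (0.0529) of 25°C left out.

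Of the genes DAF-16 activates, 3 were called higher as TPM or equal sums, and 1 to 2 with a library left out. The number lower was 1 with a pseudocount of 1, median-ratio scaling, equal sums, no trend or the block, 0 as TPM or under treat, and 1 to 2 with a library left out. Of those DAF-16 represses, 4 were called higher as TPM or equal sums, 1 under treat or the block, and 1 to 3 with a library left out. Of the heat shock and chaperone genes, 4 were called higher as TPM or equal sums, and 2 with a mean of at least 5 FPKM. Of the intestine genes, 2 were called as TPM or equal sums, 0 under treat, and 0 to 2 with a library left out. Treat called 0 vitellogenin, 0 oocyte, 0 molting and 0 adult cuticle genes. The block called 0 adult cuticle and 0 molting genes, as did either pseudocount, the stricter filter, TPM and equal sums for molting. With a library left out, 2 to 3 vitellogenin, 0 to 3 oocyte, 0 molting and 0 to 1 adult cuticle genes were called. The cause was not tested.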
